A study of Homo sapiens with 36 samples.

Results

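Binding sites of TET1 in HEK293T cells given an siRNA named for CHD3 were set against those in cells given the siRNA called siNC. All peaks of both lists were taken as members, 140 in siCHD3 and 28450 in siNC, together 28590 of the 62066 peaks in the 6 lists of the series. HEK293T is a human embryonic kidney line that carries the SV40 large T antigen. Each group had 3 pull-down libraries made with an antibody to TET1 and 3 input libraries. Each group has 1 deposited peak list, taken as called on its pooled replicates, because the list's name joins replicates 1, 2 and 3. Every other siRNA of the series carries a gene name, so siNC serves as the control here. The amount of CHD3 left after transfection was not analysed here, and peak positions do not allow a check of the cell line against its markers. Cells of both groups were transfected with an siRNA, and the labels give no clone, time after transfection or second treatment.

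TET1 is a dioxygenase that oxidises 5-methylcytosine and so opens a route to loss of DNA methylation. CHD3 is an ATPase of the CHD family that can serve as the motor of NuRD, a complex that joins nucleosome remodelling with histone deacetylation. NuRD holds a single CHD ATPase at a time, CHD3, CHD4 or CHD5. Stretches beside human centromeres are rich in tandem satellite repeats, in which short reads are hard to place. The mitochondrial genome carries no nucleosomes and is present in many copies per cell.

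Peaks of the lists were matched when they shared 1 bp or more. An siNC peak with a siCHD3 match is called kept, and one without is called lost. A siCHD3 peak with an siNC match is called shared, and one without is called new. A list holds only what passed the authors' threshold, so a lost site is absent from the siCHD3 list and may still carry signal. Fold enrichment is the authors' value, read at the summit, of pull-down over the control around it, and it describes a peak within its own list. With 1 pooled list per group, no difference below could be set against a spread between replicates, and none was tested. For shares, 95% intervals by the exact Clopper-Pearson method are given in parentheses and reflect counting error alone. Positions are on hg19, counted from 1. No sequence or gene annotation of that build was used here, so sites are named by position.

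siCHD3 peaks were matched to 51 siNC peaks, 0.179% of the siNC list (95% interval 0.134 to 0.236), and 28399 siNC peaks (99.8%) were lost. Seen from the shorter list, 53 of 140 siCHD3 peaks were shared (37.9%, 29.8 to 46.4) and 87 were new (62.1%). Kept and shared numbers differ because some peaks match several partners. The lowest −log10 q-value was 1.31 in siCHD3 and 1.30 in siNC. The −log10 p-value at the low end of the list was 5.88 in siCHD3 and 3.76 in siNC. When siNC was held to the siCHD3 value, 26664 siNC peaks were left and 44 of them were kept (0.165%, 0.120 to 0.221). Read totals were not analysed here. The lowest control background recovered at any summit was 2.29 reads in siCHD3 and 2.50 reads in siNC.

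The location of the peaks set the lists apart. Within 2 Mb of a centromere gap lay 78 siCHD3 peaks (55.7%, 47.1 to 64.1), against 529 siNC peaks (1.86%, 1.71 to 2.02). The mitochondrial genome held 31 siCHD3 peaks (22.1%, 15.6 to 29.9), against 0 of 28450 siNC peaks, with an exact upper bound of 0.0130%. Unplaced or alternative sequences held 14 siCHD3 peaks (10.0%, 5.58 to 16.2), against 103 siNC peaks (0.362%). The remaining chromosome arms held 17 siCHD3 peaks (12.1%, 7.24 to 18.7), against 27818 siNC peaks (97.8%, 97.6 to 97.9). The siCHD3 list thus lay mainly beside centromeres and on the mitochondrial genome, and the siNC list almost wholly on the arms.

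**Figure D1:**
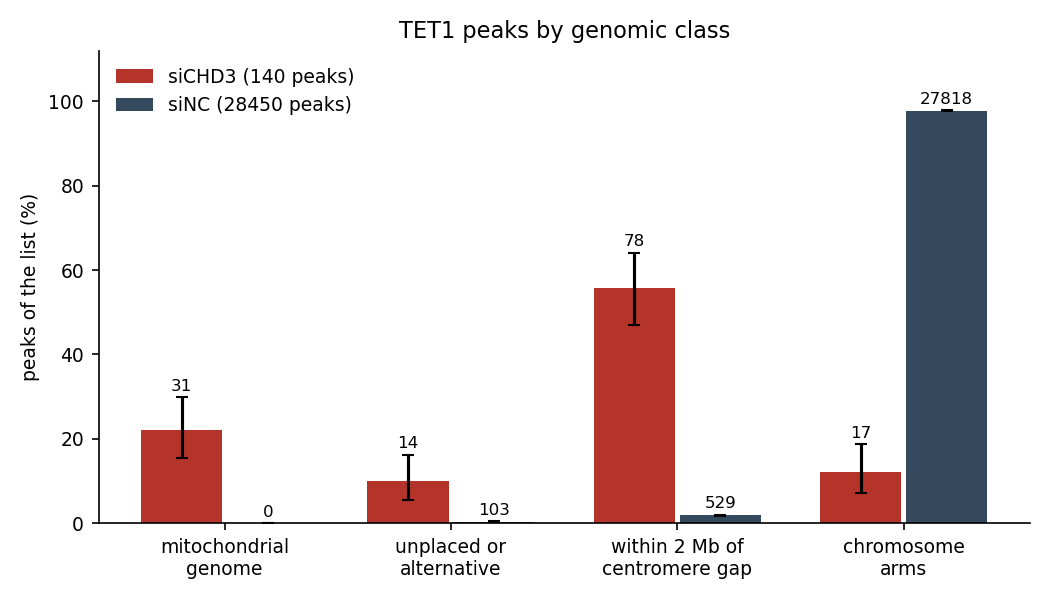
Percent of each list's peaks (vertical axis) in 4 genomic classes, with siCHD3 in red and siNC in dark blue. Bars start at 0, error bars are exact 95% intervals, and the figure over each bar is the number of peaks: 78 of 140 siCHD3 peaks lay within 2 Mb of a centromere gap and 27818 of 28450 siNC peaks lay on the arms.

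Fold enrichment was low throughout the siCHD3 list. Its median was 1.53 in siCHD3 (quartiles 1.32 and 1.77), against 6.72 in siNC (4.96 and 8.99). A fold under 2 was found for 117 siCHD3 peaks (83.6%), against 66 siNC peaks (0.232%). A fold of 4 or more was found for 6 siCHD3 peaks, against 24783 siNC peaks. Within siCHD3 the classes overlapped in fold. Mitochondrial peaks had a median fold of 1.21 and spanned 1.10 to 1.45. Peaks on unplaced or alternative sequences had a median of 1.54 in siCHD3 and 6.0 in siNC. Near centromeres the median was 1.60 in siCHD3 and 6.29 in siNC, and on the arms it was 3.26 in siCHD3 and 6.74 in siNC. In siCHD3 the quartiles were 1.43 and 1.67 on unplaced or alternative sequences, 1.46 and 1.77 near centromeres, and 1.54 and 3.81 on the arms. The highest siCHD3 fold was 5.17, below the siNC median.

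**Figure D2:**
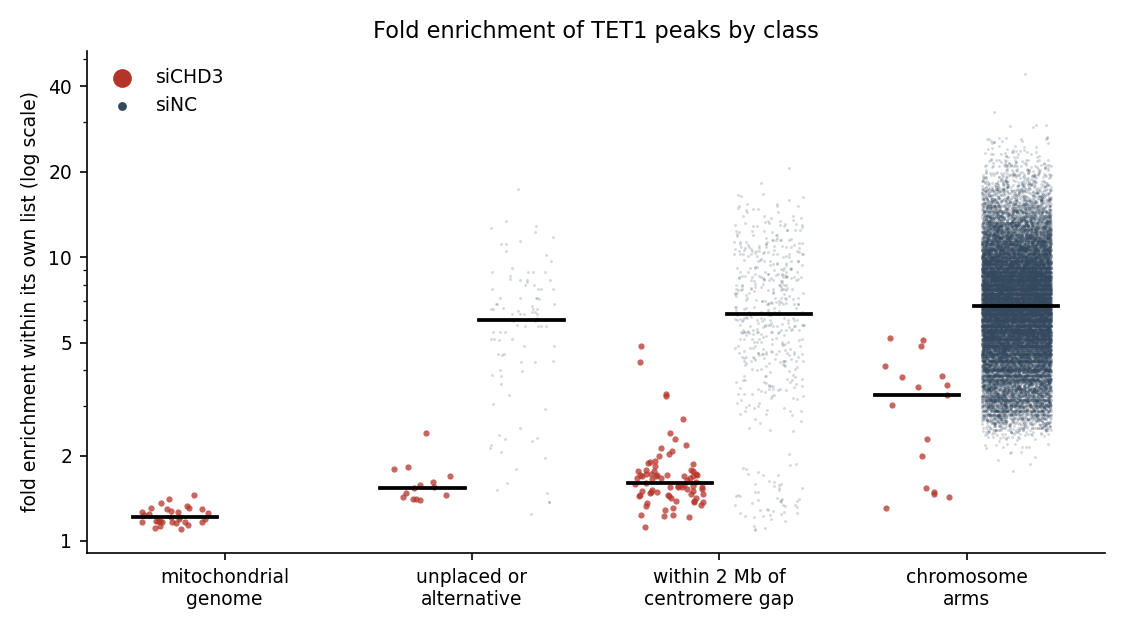
Fold enrichment of every peak within its own list (vertical log axis) by genomic class, with siCHD3 in red to the left of siNC in dark blue. Black lines are medians; on the arms they stand at 3.26 in siCHD3 and 6.74 in siNC, and near centromeres siNC has a separate group of peaks under fold 2.

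Width differed less than position or fold. Counted per peak, so that an interval enters once for each summit, the median width was 342 bp in siCHD3 and 300 bp in siNC. Counted as distinct intervals, siCHD3 had 104 intervals with a median width of 304.5 bp (quartiles 213.75 and 380.25) and siNC had 28072 with a median of 298 bp (251 and 357). Intervals of 500 bp or more made up 9.62% of siCHD3 and 3.71% of siNC. The narrowest interval was 182 bp in siCHD3 and 203 bp in siNC. Several summits within 1 interval were found in 28 siCHD3 intervals (26.9%) and 367 siNC intervals (1.31%). By class, the siCHD3 median was 385.5 bp on the mitochondrial genome, 303 bp near centromeres, 258 bp on the arms and 225 bp on unplaced or alternative sequences. Kept siNC intervals had a median of 347 bp, against 298 bp for lost ones. New siCHD3 intervals near centromeres had a median of 216.5 bp, against 327.5 bp for shared ones.

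Kept siNC sites were then placed along the chromosomes. Within 0.1 Mb of a centromere gap, 31 of 47 siNC peaks were kept (66.0%, 50.7 to 79.1). Between 0.1 and 1 Mb the number was 8 of 185 (4.32%, 1.89 to 8.34), and between 1 and 2 Mb it was 2 of 297 (0.673%, 0.0817 to 2.41). Between 2 and 10 Mb 0 of 3296 were kept, with an exact upper bound of 0.112%, and beyond 10 Mb 6 of 24522 (0.0245%, 0.00898 to 0.0532). By the same distances, siCHD3 had 50 peaks within 0.1 Mb, 24 up to 1 Mb, 4 up to 2 Mb, 0 up to 10 Mb and 17 beyond. A kept siNC peak overlaps a siCHD3 peak by definition, so the likeness of the distances is set in advance. The bins were chosen after the values were seen.

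The fold of the site in siNC also moved with its state. Of siNC peaks with a fold under 1.5, 29 of 41 were kept (70.7%, 54.5 to 83.9), and of those from 1.5 to 2, 14 of 25 (56.0%, 34.9 to 75.6). Of siNC peaks between fold 2 and 4, 4 of 3601 were kept (0.111%), between 4 and 8, 1 of 14871 (0.00672%), and at 8 or more, 3 of 9912 (0.0303%). Kept sites had a median siNC fold of 1.41, against 6.74 for lost sites. Over the whole siNC list 99.8% of peaks were lost, so nothing about fold is read from counts among the strongest peaks. The 10 siNC peaks of highest fold were all lost, and 1 of the 100 highest was kept. The highest lay on chromosome 17 at 43212531 to 43213330, where 154 pull-down reads stood over a control background of 2.50 reads in siNC. Others were on chromosome 17 from 41837676 to 41838177 (32.5-fold in siNC) and from 17259320 to 17259822 (28.7-fold), and on chromosome 7 from 150869517 to 150869997 (29.2-fold) and from 101151020 to 101151504 (26.3-fold). Chromosome 16 held 3, from 90182560 to 90183025 (29.1-fold), from 60818 to 61233 (28.95-fold) and from 4303989 to 4304446 (26.6-fold). The last were on chromosome X from 153212675 to 153213167 (26.4-fold) and on chromosome 19 from 50604151 to 50604620 (26.4-fold). At these 10 sites siNC had 91 to 262 pull-down reads over a control background of at most 8.98 reads, and the siCHD3 list had no peak at any of them.

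Control background at the summit also moved with the state of a site. Pull-down pileup and control background at each summit were recovered from the deposited fold and −log10 p-value, for all peaks of both lists. The control background, also given below as control reads, is a value solved for and not a count of input reads. A control background of 50 reads or more was found at 120 siCHD3 peaks (85.7%, 78.8 to 91.1), against 62 siNC peaks (0.218%, 0.167 to 0.279). Of those 62 siNC peaks 44 were kept (70.97%, 58.1 to 81.8), and of the 28388 siNC peaks under 50 reads 7 were kept (0.0247%, 0.00991 to 0.0508). At 200 reads or more 38 of 46 siNC peaks were kept (82.6%, 68.6 to 92.2). The median control background was 392 reads in siCHD3 and 3.70 reads in siNC. Of the 62 siNC peaks with 50 reads or more 53 lay near centromeres, as did 54 of the 66 siNC peaks under fold 2. The control background is also solved from the fold. Position, fold and control background are thus not separate findings. The part of control background in the state of a site was not tested.

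**Figure D3:**
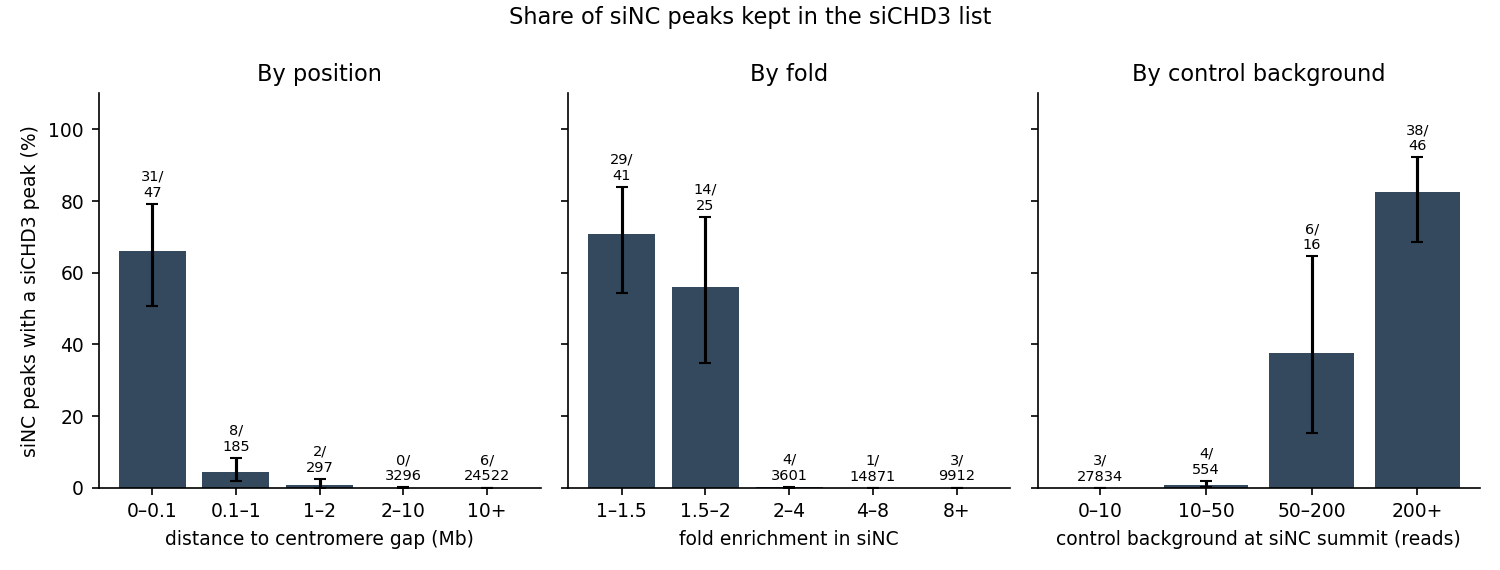
Percent of siNC peaks with a siCHD3 match (vertical axis, bars from 0, exact 95% intervals) by distance to the centromere gap in Mb, by siNC fold and by control background at the siNC summit in reads. Fractions over the bars are kept and all siNC peaks; the share is highest within 0.1 Mb (31 of 47), under fold 1.5 (29 of 41) and at 200 reads or more (38 of 46).

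**Figure D4:**
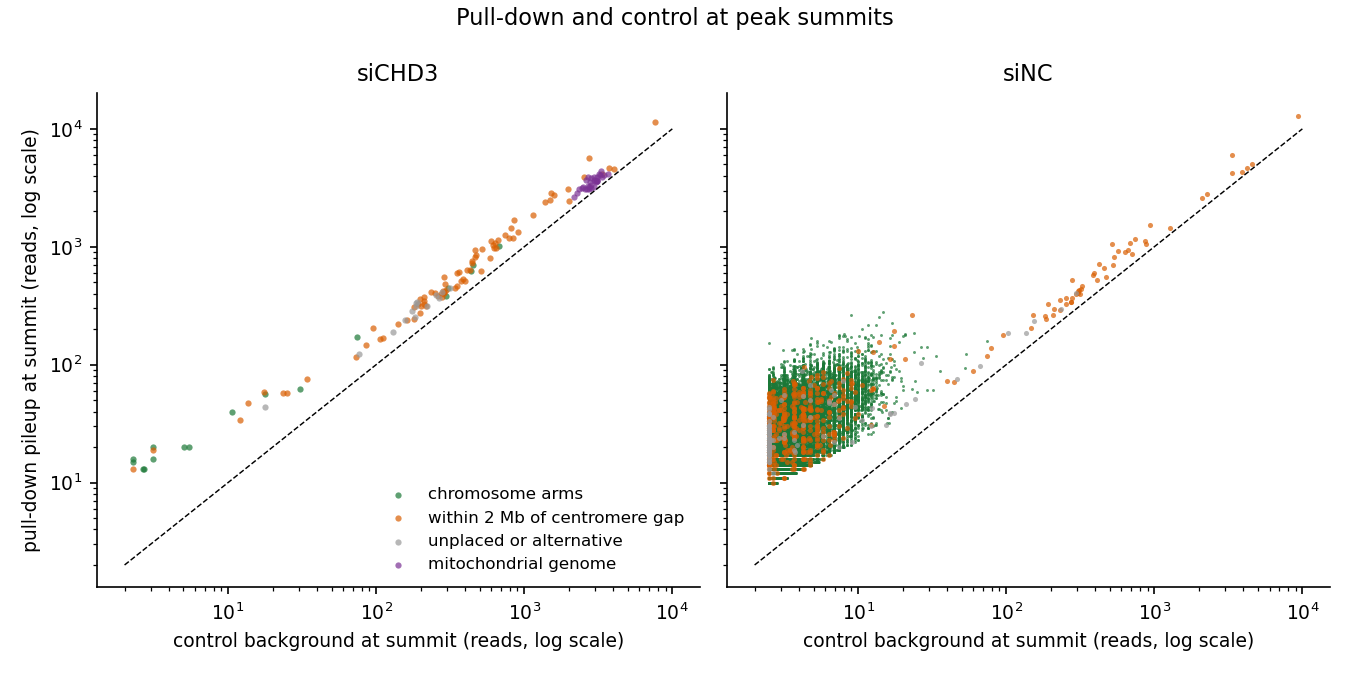
Pull-down pileup (vertical log axis) against control background (horizontal log axis) at each summit, in reads, for all siCHD3 peaks on the left and all siNC peaks on the right, coloured by class; the dashed line marks equal values. Most siNC arm peaks form a cloud under 10 reads of control background, where siCHD3 has 10 peaks, and siCHD3 peaks run along the line up to 11390 pull-down reads.

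Near centromeres, siCHD3 peaks were found on 14 chromosomes, at a median distance of 60.4 kb from the gap. The siCHD3 peaks of this class on either side of a gap are called a run, and its span reaches from the first to the last. Runs went from single peaks, as on chromosomes 4, 17 and Y, to 791 kb after the gap of chromosome 7. Because siCHD3 peaks draw the span, a high share of kept siNC peaks within it is partly set in advance. The run with most peaks, on chromosome 2 at 92290925 to 92325270, held 16 siCHD3 peaks in 10 intervals over 34.3 kb, with folds of 1.34 to 1.77. The end of that run lay 0.901 kb from the gap. siNC had 11 peaks in the same span, with a median fold of 1.34, and 10 of them were kept. Chromosome 2 as a whole lost 2043 of 2053 siNC peaks. The interval at 92312606 to 92313405, 800 bp wide, held 3 siCHD3 summits of 415, 729 and 1033 pull-down reads. The siNC partners of nearest summit had 408 reads for the first and 657 for the others.

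On chromosome 11, 7 siCHD3 peaks lay between 51580437 and 51591335, with folds of 1.69 to 2.02. All 7 siNC peaks in that span, which the siCHD3 peaks draw, were kept. The whole chromosome kept 7 of 1428. The peak at 51580437 to 51580626 had 936 pull-down reads over 463 control reads in siCHD3, and its partner had 1050 over 520 in siNC. The fold there was 2.02 in siCHD3 and 2.02 in siNC.

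Chromosome 19 carried the peak of highest significance in the siCHD3 list, at 27731958 to 27732323. Its −log10 q-value was 518 in siCHD3 and 376 in siNC, and its fold was 2.08 in siCHD3 and 1.81 in siNC. It belonged to a run of 6 siCHD3 peaks over 6.69 kb, and 3 of the 4 siNC peaks there were kept. Chromosome 1 had the deepest summit, at 121484973 to 121485369, with 11390 pull-down reads over 7651 control reads in siCHD3, against 12868 over 9361 in siNC. Both sites were thus deep in pull-down and control of either group.

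On chromosome 10, 12 siCHD3 peaks lay between 42387037 and 42599861, of which 4 were shared, and 4 of 6 siNC peaks in that span were kept. After the gap of chromosome X, 7 siCHD3 peaks lay over 51.0 kb and all 3 siNC peaks there were kept. Before that gap, 2 siCHD3 peaks lay over 10.5 kb, both new, and 0 of 1 siNC peak there was kept. Chromosome 16 had 3 siCHD3 peaks between 46393999 and 46425058, where siNC had none. On chromosome 9 the 4 siCHD3 peaks were all shared and lay farthest from their gap, at 1603 to 1953 kb. In that span 2 of 4 siNC peaks were kept, and the siNC median fold was 5.38. On chromosome 18 the 3 siCHD3 peaks lay within 1.33 kb, and all 3 siNC peaks there were kept. On chromosome 8, 4 siCHD3 peaks lay before the gap, 2 of them shared, and 1 shared peak lay after it. Before the gap 2 of 4 siNC peaks in the span were kept, and after it 1 of 1. The shared site at 43793853 to 43794035 had 203 pull-down reads (2.12-fold) in siCHD3, against 180 reads (1.87-fold) in siNC. On chromosome 18 the interval at 18518934 to 18519413 held siCHD3 summits of 425 reads (1.498-fold) and 448 reads (1.31-fold), against siNC summits of 520 reads (1.85-fold) and 370 reads (1.34-fold). The widest interval of the class lay on chromosome 7 at 61968802 to 61969634 (833 bp), with 1.23-fold and 1.24-fold summits in siCHD3. The 3 siNC summits there had folds of 1.10, 1.27 and 1.09, so neither list was uniformly higher.

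Lost and kept siNC sites near centromeres differed in fold over the whole class, but hardly within 0.1 Mb of the gap. The 41 kept sites had a median fold of 1.39 and lay at a median of 54.5 kb from the gap, and the 488 lost sites had a median fold of 6.69 and lay at 1255 kb. None of the 412 siNC sites of fold 4 or more in this class was kept, and the highest fold of a kept site was 2.02. Within 0.1 Mb, the 31 kept sites had a median fold of 1.39 and the 16 lost sites 1.48. All 47 siNC peaks there had a median fold of 1.41, against 6.59 between 0.1 and 1 Mb. Folds there were mostly low, so this comparison cannot tell fold and position apart. Of the 54 siNC sites under fold 2 in this class, 40 were kept and 14 were lost.

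The siCHD3 peaks of highest fold near centromeres were all new. Chromosome 7 held 3 of the 5 highest, 61185907 to 61186109 with 4.87-fold, 57967982 to 57968195 with 4.26-fold and 61975616 to 61975943 with 3.23-fold. Chromosome 4 held a 3.29-fold peak of 570 bp from 49151197 to 49151766, and chromosome Y a 2.69-fold peak from 13461054 to 13461249. The first of those on chromosome 7 had 19 pull-down reads over a control background of 3.11 reads, and the second 13 over 2.29. These summits had few reads, against a median of 526 pull-down reads over all siCHD3 peaks near centromeres. The peaks at 61185907 and 57967982 on chromosome 7 were in no other list of the series. Whether reads placed on chromosome Y came from that chromosome was not tested.

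Mitochondrial peaks were new throughout, since siNC had 0 peaks there. The 31 siCHD3 summits lay in 16 intervals between positions 617 and 16009 and covered 8408 bp, or 54.6% of that span. The longest stretch without a peak was 1228 bp, from 13570 to 14797. The interval at 617 to 2039 was the widest of the whole siCHD3 list (1423 bp) and held 6 summits. The next widest were at 6501 to 7589 (1089 bp) and 2273 to 3358 (1086 bp).

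The highest mitochondrial folds were 1.45 at 12080 to 12264, 1.41 at 9202 to 9481, 1.36 in the interval at 617 to 2039, 1.33 in that at 6501 to 7589 and 1.31 in that at 11249 to 11789. At the first of these, 3884 pull-down reads stood over 2686 control reads. Over all 31 summits the pileup ran from 2636 to 4371 reads, and the median control background was 2842 reads. Fold therefore varied little over a genome where both pull-down and control were deep. All 31 peaks also overlapped a peak of siCHD4, siMBD2 or siMBD3, and 0 overlapped siCHD5. No such count was made over all siCHD3 peaks, so nothing particular to mitochondrial peaks is read from it.

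Unplaced or alternative sequences held 14 siCHD3 peaks, all on chr9_gl000199_random, chrUn_gl000212, chrUn_gl000226 and chrUn_gl000228. Of these 3 were shared and 11 were new. The peak of highest fold lay on chrUn_gl000212 at 40594 to 40892, with 2.40-fold and 44 pull-down reads in siCHD3, against 2.12-fold and 46 reads in siNC. The next lay on chrUn_gl000226 at 12415 to 12675 (1.82-fold, new), and on chr9_gl000199_random at 136933 to 137242 (1.79-fold, shared), at 107225 to 107413 (1.69-fold, new) and at 156360 to 156552 (1.61-fold, new). The widest were on chrUn_gl000226 at 4990 to 5466 (477 bp) and on chr9_gl000199_random at 124839 to 125196 (358 bp) and 136933 to 137242 (310 bp). siNC peaks in this class had a median fold of 6.0, and 4 of 103 were kept.

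Chromosome arms held 17 siCHD3 peaks in 15 intervals on 10 chromosomes, 6 shared and 11 new. Of 27818 siNC arm peaks 6 were kept (0.0216%, 0.00792 to 0.0469). At 4 of the 6 shared sites siCHD3 had at most 20 pull-down reads.

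The strongest kept site lay on chromosome 1 at 21694938 to 21695327 in siNC, rank 60 of the siNC list by fold. It had 20 pull-down reads over 3.11 control reads in siCHD3 (5.12-fold), against 160 over 6.34 in siNC (21.9-fold). On chromosome X at 11551371 to 11551586 the pileup was 20 reads in siCHD3 (3.47-fold), against 67 reads in siNC (8.64-fold). On chromosome 15 at 89200673 to 89200856 it was 15 reads in siCHD3 (4.87-fold), against 56 reads in siNC (8.37-fold). On chromosome 22 at 41156504 to 41156716 it was 13 reads in siCHD3 (3.77-fold), against 55 reads in siNC (4.44-fold). At these 4 sites the siCHD3 interval was also the narrower, between 182 and 216 bp wide. Those widths lie near the lowest of the siCHD3 list, 182 bp, whereas the lowest of siNC was 203 bp.

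The other arm sites shared by the lists had like values in both. On chromosome 12 at 1194433 to 1194755 siCHD3 had 40 pull-down reads over 10.6 control reads (3.55-fold), against 31 over 10.5 in siNC (2.77-fold). On chromosome 7 at 24090 to 24397, close to the chromosome's start, siCHD3 had 171 over 74.1 (2.29-fold), against 160 over 73.9 in siNC (2.15-fold).

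Of the 11 new arm peaks, 5 had 50 or more control reads and folds of at most 1.54. A pair of intervals on chromosome 1 held 4 summits, at 564732 to 565184 (1.46-fold and 1.30-fold) and at 566148 to 566685 (1.48-fold and 1.43-fold), with 386 to 1010 pull-down reads. That stretch is known to hold a nuclear copy of mitochondrial DNA, and the sequences were not compared here. Chromosome 4 at 68265532 to 68265845 had 694 pull-down reads over 450 control reads (1.54-fold). Those 5 summits and the shared site at the start of chromosome 7 were the 6 arm peaks with 50 or more control reads.

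The remaining new arm peaks had between 13 and 62 pull-down reads. Chromosome 6 at 862642 to 862921 had the highest fold of the siCHD3 list (5.17-fold, 16 reads over 2.29) and was in no other list of the series. Also absent from every other list were a 4.14-fold peak of 16 reads from 67873010 to 67873199 on chromosome 8 and a 3.81-fold peak of 13 reads from 82082020 to 82082277 on chromosome 5. The siCHD5 list held the 3.26-fold site from 158995968 to 158996212 on chromosome 7. Both siCHD4 and siCHD5 held the 3.02-fold site from 236877220 to 236877670 on chromosome 1 and the 1.99-fold site from 157731693 to 157731916 on chromosome 6.

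At shared sites the values were compared peak by peak, each siCHD3 peak with the overlapping siNC peak of nearest summit. Both read scales belong to their own list, and some siCHD3 peaks share a partner. Near centromeres the pileup in siCHD3 was 1.01 times that in siNC at the median of 44 pairs (range 0.472 to 1.90), with 43 pairs between 0.5 and 2 times. The control background there was 0.906 times that in siNC at the median, and fold was higher in siCHD3 in 35 pairs and lower in 9. On the arms the pileup in siCHD3 was 0.283 times that in siNC at the median of 6 pairs (range 0.125 to 1.29), and fold was higher in 2 pairs and lower in 4. The median of fold was 1.56 in siCHD3 and 1.41 in siNC near centromeres, and 3.66 in siCHD3 and 6.40 in siNC on the arms. Shared sites beside the centromeres thus had nearly equal pileups in the lists, while 4 of 6 shared arm sites had under 0.5 times the siNC pileup. The 488 siNC sites lost near centromeres and the 27812 lost on the arms enter no pair.

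**Figure D5:**
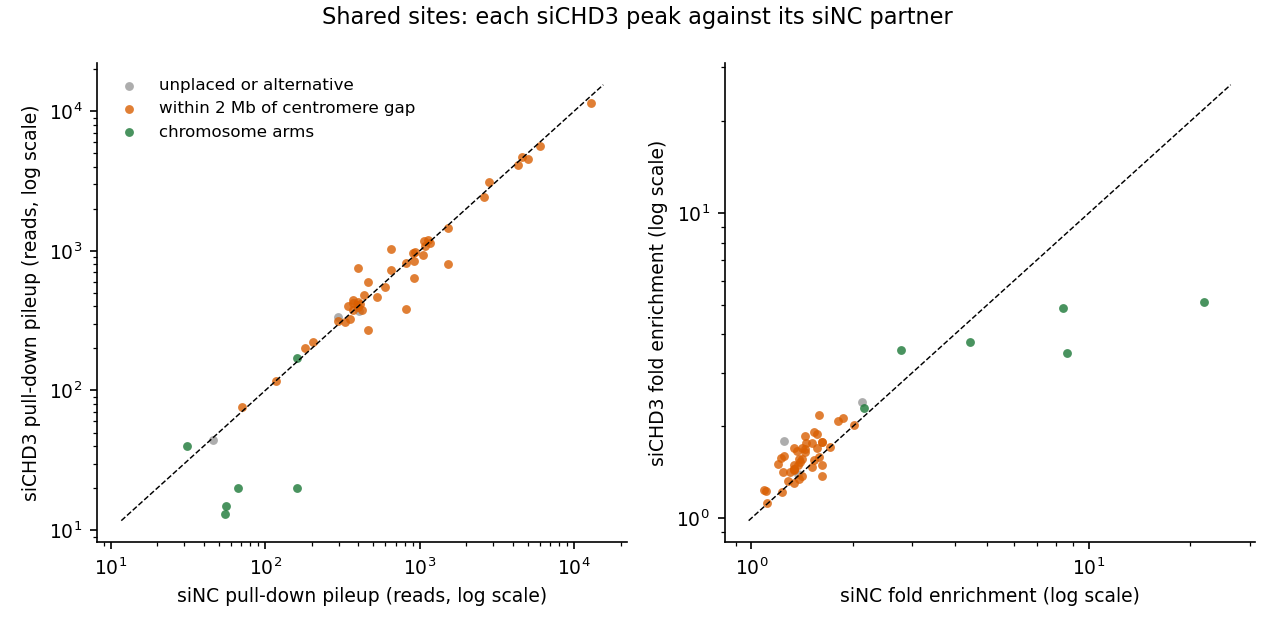
Pull-down pileup in reads (left) and fold enrichment (right) of 53 shared siCHD3 peaks (vertical log axes) against their siNC partners (horizontal log axes), coloured by class; the dashed line marks equal values. Sites near centromeres follow the line in pileup (median ratio 1.01), and 4 of 6 arm sites lie below 0.5 times the siNC value.

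Of the 87 new siCHD3 peaks 31 were mitochondrial, where siNC had no peak, and 56 lay on sequences that carry siNC peaks. Of these 56, 11 were within 1 kb of an siNC peak, and near centromeres 20 of 34 new peaks lay within 10 kb. No share for other positions was computed, so nothing is read from these distances. Another list of the series held 65 of the 87 new peaks: siCHD4 held 48, siMBD2 49, siMBD3 46 and siCHD5 19. Those lists differ in size, with 110 peaks in siCHD4, 358 in siMBD2, 259 in siMBD3 and 32749 in siCHD5. In no other list were 22 new peaks found, 10 near centromeres, 7 on unplaced or alternative sequences and 5 on the arms. The same count was not made over all siCHD3 peaks, so nothing about new peaks is read from these numbers.

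By chromosome, loss was nearly complete everywhere. siCHD3 had 0 peaks on chromosomes 3, 13, 14, 20 and 21, where siNC had 4120. A further 6 chromosomes had siCHD3 peaks but kept 0 siNC peaks, namely 4, 5, 6, 16, 17 and Y. The highest share kept on any chromosome was 3 of 473 on chromosome 18 (0.634%), all beside the centromere. Chromosome 17 kept 0 of 1510 siNC peaks, with 76 of them within 2 Mb of its centromere gap, and its only siCHD3 peak lay 1.71 kb from the gap (1.29-fold).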

How the data were processed

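TET1 pull-down and input libraries were sequenced from fragments of 200 to 500 bp after 18 PCR cycles, per the labels' protocols. The submitters' processing notes name Bowtie2 2.3.4, MACS2 2.1.2, bedtools 2.25.0 and build hg19, with no role; settings and duplicate handling are not given in the sources used here. Each deposited list gives a fold (a ratio), a −log10 p-value, a −log10 q-value and a score per summit. The deposited score equals 10 times the −log10 q-value, truncated, within 1.

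Lists were compared in Python 3.11.15 with numpy 2.4.6, pandas 2.3.3 and scipy 1.17.1. Pileup and background are the whole read number k and the value b for which (k + 1)/(b + 1) equals the fold and a Poisson tail gives the −log10 p-value within 0.02. All 140 siCHD3 and 28450 siNC peaks could be solved. On simulated data, 300 of 300 pileups and 30 of 30 planted overlaps were recovered. Those data were made with the same formula and overlap rule. They check the computation and cannot show whether the formula holds for the deposited values.

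Centromere gaps of hg19, joined with the adjoining heterochromatin gaps on chromosomes 1, 9 and 16, were entered by hand; 0 peaks of the 6 lists lay inside one. Named sites are all siCHD3 arm peaks, the 5 highest and 3 widest siCHD3 peaks of each other class, the kept siNC arm peaks and the siNC peaks of highest fold. Runs beside the gaps, the highest −log10 q-value, the deepest summit and single chromosomes were chosen after their values were seen. Members, classes and rules were chosen with earlier results of these data known. Read totals limit precision but were not analysed here.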

Additional observations from a re-analysis of the deposited data

How the results depend on the processing

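No paired analysis was possible because each group has 1 pooled list, and no replicate could be left out. Alternatives gave 55 values, and 38 stayed within 1.5 times the count or within the 95% interval of the value reported. Requiring 50% of the shorter peak, or summits within 200 bp, left 51 and 45 siNC peaks kept. A fold of 2 or more in both lists left 8 kept and a fold of 4 or more left 2. The share of siCHD3 peaks over siNC was 52.6% on chromosomes 1 to 22, X and Y, and 2.86% with siNC limited to its 140 peaks of highest −log10 q. Counted as distinct intervals, the mitochondrial share of siCHD3 was 15.4%, median width was 304.5 bp in siCHD3 and 298 bp in siNC, and the siCHD3 median fold was 1.61. At a fold of 2 or more, 23 siCHD3 peaks were left: the mitochondrial share was 0%, the unplaced or alternative share 4.35% and the arm share 47.8%, and the siNC share near centromeres was 1.67%. That siNC share was 0.815% within 1 Mb, 6.0% within 5 Mb and 1.46% in the widest stretch of each chromosome that lacks siNC peaks of 4-fold or higher, with 1 Mb added to both ends. At a −log10 q of 5 or more the median width per peak was 361.5 bp in siCHD3 and 304 bp in siNC, against 342 bp and 300 bp over all peaks of siCHD3 and siNC. On the arms alone the siCHD3 median fold was 3.26. Holding siNC to the lowest siCHD3 −log10 p was added after the data were seen. Fewer peaks remain by construction under each minimum; other causes were not tested.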
